A study of Mus musculus with 5 samples.

Results

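In mouse cells carrying the mutant interleukin-7 receptor named INS, 45 of 23473 array probes differed at least 2-fold from cells with the wild-type receptor (WT) in the same direction in B cells and in Notch1-driven T-cell leukemia (T-ALL), while staying under 2-fold in cultured lymphoid progenitors. Of these, 10 were higher in INS in both settings and 35 were lower. They were chosen from the measured ratios of these 3 arrays. A probe had to reach a WT signal of at least 100 over the blank spots in both the B cells and T-ALL, and a log2 ratio of INS over WT of at least 1, or at most -1, on both arrays. In the cultured common lymphoid progenitors (CLP) the absolute log2 ratio had to be under 1. The ratios on these arrays are therefore a description of the choice and support nothing by themselves. The KSL culture and the myeloid progenitors (CMP), with 1 array each, played no part in it.

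All cells were Balb/c mouse cells that had received a retroviral vector with either WT or INS IL7R, so the WT cells also carried an introduced receptor. The CLP culture was grown for 5 to 7 days on OP9 stroma in medium with 20% serum, with stem cell factor (SCF), interleukin-7 and Flt3 ligand. The B cells came from CLP cells transplanted into recipients irradiated with 4 Gy and were taken around day 60 as IgM+B220+ cells; the labels call the INS cells leukemic and the WT cells B cells, so leukemia and receptor type cannot be told apart. The T-ALL cells came from KSL cells (early hematopoietic stem and progenitor cells) that received intracellular Notch1 (ICN1) together with WT or INS IL7R and were transplanted into lethally irradiated recipients; both were leukemic and were taken at day 30 to 40. The KSL culture ran for 4 to 5 days, also with 20% serum, with SCF, thrombopoietin, interleukin-6, Flt3 ligand and interleukin-3. The CMP fraction was sorted around day 40 from lethally irradiated recipients of KSL cells. Cells of each sample were pooled, the sources used here give neither the number of animals in a pool nor the promoter of the vectors, and each setting had 1 array with WT in Cy5 and INS in Cy3. No difference below has a replicate check, no p-value was computed, and dye and genotype ran together on every array.

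IL7R is the chain that gives the interleukin-7 receptor its specificity, and together with the common gamma chain it signals through JAK1 and JAK3 to STAT5. The receptor drives survival and growth of early B and T lineage cells and is switched off as B cells mature. Activating IL7R mutations occur in T-cell and B-cell acute lymphoblastic leukemia, where Notch1 activation is the other common lesion of the T lineage.

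The array probes carry IDs with no gene name: 0 of 23473 IDs, and 0 of the 45, were found in the RefSeq gene table. Genes, their roles, their sequences and the identity of the sorted cells by marker genes were therefore not analysed here, and the probes are described by signal and ratio. Signals are intensities over the median of 2736 blank spots, and a signal under 50 was set to 50 before the ratio. None of the 1102 spots without a probe reached 100 on any array. The WT signal reached 100 for 29.5% to 32.6% of probes on 4 arrays and for 17.9% on the CMP array, so fewer probes could be followed there. The log2 ratio is relative to the median of each array, which was 0.96 in the B cells and 0.87 in T-ALL before it was set to 0. The 2 positive controls were each spotted 24 times, and the SD of their log2 ratio within an array ran from 0.08 to 0.13; this measures spotting and scanning error alone.

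A WT signal of at least 100 on both arrays was found for 5956 probes. INS exceeded WT by at least 2-fold for 535 of them in the B cells and for 99 in T-ALL, and WT exceeded INS for 465 and 85. Higher on both were 17, or 0.285% of the probes measured, and lower on both were 44, or 0.739%. The limit in the CLP culture removed 7 of the 17, of which 5 were higher in INS there too, and 9 of the 44, of which 7 were lower there too. The 10 left are 0.168% and the 35 left 0.588% of the probes measured, shares that the rule itself fixes. Opposite directions in B cells and T-ALL, with the same limit in the CLP culture, were found for 19 of the 5956 probes. Of these 19, 6 were higher in INS B cells and lower in INS T-ALL, and 13 the reverse.

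The probes lower in INS were among the brightest of WT B cells. Their WT signal in the B cells had a median of 4836 and ran from 117 to 64735, and 27 of the 35 lay in the top 5% of all probes on that array. In INS B cells the median signal was 2132. In T-ALL the same probes had a median WT signal of 261, from 101 to 40843, and a median INS signal of 72. Among all probes of an array, their median percentile went from 98.7 in WT to 94.7 in INS B cells and from 81.4 in WT to 57.2 in INS T-ALL. The WT signal is part of the rule, both as the minimum and in the ratio. A bright WT signal and a lower rank in INS are therefore favoured by the choice. The median log2 ratio was -2.14 in the B cells (quartiles -3.22 and -1.58) and -2.01 in T-ALL (quartiles -2.73 and -1.33), and the size was larger in the B cells for 19 of the 35 and in T-ALL for 16. Of the 35, 12 were at least 4-fold lower on both arrays and 5 at least 8-fold. The INS signal was under the floor of 50 for 4 probes in the B cells and for 15 in T-ALL, so the fold difference of those probes is a lower bound.

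M400007350 had the largest difference shared by both arrays. Its signal was 64735 in WT and 9029 in INS B cells, and 5946 in WT and 623 in INS T-ALL, so that INS was 13.9-fold lower in the B cells and 17.5-fold lower in T-ALL after centring. The WT B cell signal was the brightest of these probes and lay near the top of the scanner scale, where a fold difference can be compressed. In the CLP culture it was 254 in WT and 603 in INS, a log2 ratio of 0.98 just inside the limit. In the KSL culture and in the CMP its signals were 6 to 11, far below the floor, so no ratio could be had there. WT was above INS in both transplanted lymphoid settings and below it in the CLP culture.

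M400007607 came next among the lower probes. Its signal was 18599 in WT and 2855 in INS B cells, a 12.7-fold difference after centring. In T-ALL it was 295 in WT and 23 in INS, so INS was at least 10.8-fold lower. The CLP culture gave 186 in WT and 123 in INS (log2 ratio -0.86), and the KSL culture and the CMP had signals of 0 to 9. Bright in WT B cells and weak in WT T-ALL, this probe resembles many of the lower ones.

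WT signals divided the 35 lower probes. The WT signal was highest in the B cells for 25 of them, 17 stayed under 100 in WT in the CLP culture, the KSL culture and the CMP, and 8 reached 100 in WT on all 5 arrays. In 18 of them the WT T-ALL signal was under 10% of the WT B cell signal, against 51 of all 5956 probes. Signals were not scaled between arrays, so these comparisons also depend on the brightness of each array. The dimmest of these 18 lay at percentile 97.5 of the WT B cell signals. Their median signal was 6234 in WT and 2917 in INS B cells. The minimum of 100 in WT T-ALL and the limit of 10% together force a bright WT B cell signal. In T-ALL the median was 162 in WT and 33.5 in INS, with 12 of the 18 INS signals under the floor. The WT signal reached 100 in 5 of the 18 in the CLP culture, in 1 in the KSL culture and in 1 in the CMP. All 18 INS signals reached 100 in the B cells, so these probes were measured in both B cell samples. Their WT T-ALL signals, from 101 to 5946, were weaker than in WT B cells, and their INS T-ALL signals were lower still. Both of these traits are part of the choice.

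The same was looked at in a set defined by WT signals after the values had been seen. The T-ALL ratios counted here are those that the rule used, and they share the WT T-ALL signal with the set. These counts are therefore a description and support nothing by themselves. Of the 5956 probes, the 51 with a WT T-ALL signal under 10% of the WT B cell signal had 27 that were at least 2-fold lower in INS T-ALL, the 18 just described among them, and 10 that were higher. Over all 5956 probes, 85 were lower in INS T-ALL and 99 higher. Of the 6995 probes with a WT signal of at least 100 in T-ALL, whatever their B cell signal, 1.8% were lower and 1.94% higher. For comparison, 13 of the 1837 probes with a WT T-ALL signal of 10% to 100% of the WT B cell signal were lower in INS T-ALL and 52 higher. At 100% to 1000% it was 43 of 4047 lower and 37 higher, and at 1000% or more 2 of 21 lower and 0 higher. The minimum of 100 in WT favours probes that are higher in WT: of 53 probes with a WT B cell signal of at least 1000 and a WT signal under 100 in the CLP culture, the KSL culture and the CMP, 23 reached 100 in either T-ALL channel, of which 15 were lower in INS T-ALL and 3 higher. B cell marker genes could not be read on this array, so a share of B cells among the sorted T-ALL cells was not measured, and its part in the low T-ALL signals was not tested. In these bulk samples, fewer cells of a type and less RNA per cell cannot be told apart.

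In the other 17 lower probes the WT T-ALL signal ran from 15.6% to 235% of the WT B cell signal. Their median WT signal was 1051 in the B cells and 1333 in T-ALL, and their median log2 ratio was -1.58 and -1.35. M400000443, singled out after its values were seen, had the strongest ratio of the 17 in the B cells, at -5.15 or below, and -3.10 in T-ALL, with signals of 912 in WT and -7 in INS B cells and of 1333 in WT and 285 in INS T-ALL. It was not seen in the other 3 settings, where its signals ran from -7 to 1. At the other end, 3 of the 17, M400000325, M400006624 and M400015034, had WT signals of 29847 to 40843 in the B cells and T-ALL. Of the probes with both signals of at least 100, the brightest 25% had a median log2 ratio of 0.14 in the B cells and -0.11 in T-ALL. The brighter of the positive controls had median signals of 21684 in WT and 19577 in INS B cells. Its log2 ratio was -1.09 ± 0.10 (SD of 24 spots) in the B cells and -0.45 ± 0.08 in T-ALL. That of the other control was -0.84 ± 0.10 in the B cells and -0.01 ± 0.08 in T-ALL. The 3 probes had ratios of -1.57 to -1.03 in the B cells and -1.26 to -1.08 in T-ALL. Their ratios were negative on the CLP array too, at -0.91 to -0.81, and on the KSL array, at -1.01 to -0.35. In the CMP they ran from -1.51 to 1.26. The brighter control had -1.04 on the CLP array and -1.10 on the KSL array, against 0.62 and 0.19 for the other control. Whether the brightness accounts for the ratios of the 3 probes was not tested.

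The 10 probes higher in INS were dimmer than the lower ones in the B cells, and brighter than them by median in INS T-ALL and in both samples of the CLP culture, the KSL culture and the CMP. Their median signal was 199.5 in WT and 1055 in INS B cells, and 204 in WT and 873.5 in INS T-ALL. The log2 ratio ran from 1.18 to 4.25 in the B cells, with a median of 1.70 (quartiles 1.35 and 2.07), and from 1.02 to 2.15 in T-ALL, with a median of 1.21 (quartiles 1.09 and 1.53). The ratio was larger in the B cells for 8 of the 10, and 0 of the 10 were at least 4-fold higher on both arrays. The B cell array had the wider spread in general. Over all probes with a WT signal of at least 100, the quartiles were -0.56 and 0.45 in the B cells and -0.21 and 0.23 in T-ALL. In WT B cells these probes had a median percentile of 79.5 among all probes, and in INS B cells one of 89.9. In T-ALL the percentiles were 78.7 in WT and 87 in INS, in the CLP culture 88.6 in WT and 86.9 in INS, in the KSL culture 82.1 and 84.2, and in the CMP 74.9 and 72.3. The difference in rank between WT and INS in the B cells and T-ALL is what the rule chose.

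M400004674 had the largest shared rise. Its signal was 231 in WT and 1815 in INS B cells (4.04-fold higher in INS) and 304 in WT and 1767 in INS T-ALL (3.17-fold higher). In the CLP culture it was 892 in WT and 739 in INS, a log2 ratio of -0.54, in the KSL culture 1378 and 2729, a log2 ratio of -0.02, and in the CMP 1652 and 2203, a log2 ratio of 0.59. In unscaled signals, which also depend on array and dye, the WT B cells and WT T-ALL cells were the lowest of the 10 samples.

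M300006113 followed, with a larger difference in T-ALL than in the B cells. Its signal was 238 in WT and 1185 in INS B cells (2.56-fold higher) and 111 in WT and 901 in INS T-ALL (4.43-fold higher). The CLP culture gave 448 in WT and 839 in INS (log2 ratio 0.64), the KSL culture 311 and 808 (log2 ratio 0.37), and the CMP 145 and 130 (log2 ratio 0.02). The INS sample was the brighter on 4 of these 5 arrays before centring.

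The limit in the CLP culture was met in different ways. Of the 10 higher probes, 9 had a WT signal of at least 100 there, with log2 ratios of -0.64 to 0.86. Of the 35 lower probes, 15 did, with a median log2 ratio of -0.46 and a range from -0.91 to 0.98. A further 16 of the 35 had both signals under the floor in the CLP culture, so their ratio of -0.27 is that of the floor in both channels, and the limit was met without a measurement. Next to the limits, the smaller of the 2 log2 sizes was 1.02, 1.07 and 1.09 for the nearest higher probes inside and 0.97, 0.96 and 0.96 for those outside. For the lower probes it was 1.03, 1.03 and 1.04 inside and 0.98, 0.95 and 0.92 outside. In the CLP culture the largest absolute log2 ratio inside was 0.98 and the smallest outside 1.03.

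In the KSL culture, which the rule did not use, the higher and lower probes were not set apart. The log2 ratio of the 9 higher probes with a WT signal of at least 100 had a median of 0.01 (quartiles -0.04 and 0.35), and that of the 12 lower ones a median of -0.01 (quartiles -0.34 and 0.07). Over all 7654 such probes the median was 0 (quartiles -0.15 and 0.16), and 0.64% were at least 2-fold apart. Of the 21 probes measured, 1 was at least 2-fold apart, lower in INS. This was M400000325, one of the 3 bright probes described above, with 36349 in WT and 36265 in INS and a log2 ratio of -1.01. With loess on the blank-subtracted ratios its log2 ratio was -0.39. The brighter positive control had -1.10 in the KSL culture and the other control 0.19. M400006624, another of these 3, followed with -0.86. The highest were M200000424, a probe lower in the B cells and T-ALL, with 487 in WT and 1402 in INS (log2 ratio 0.52), and M300002538, one of the higher probes, with 592 in WT and 1644 in INS (0.47).

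In the CMP, also outside the rule, few of these probes could be measured. The WT signal reached 100 for 4 of the 10 higher and 12 of the 35 lower probes, and both signals were under the floor for 5 and 21. The median log2 ratio was 0.30 for the 4 higher probes (quartiles -0.11 and 0.93) and -0.31 for the 12 lower ones (quartiles -0.60 and 0.51), against -0.19 over all 4213 probes (quartiles -0.77 and 0.38). Of the 4 higher probes, 1 had at least 2-fold more signal in INS and 0 at least 2-fold less; of the 12 lower ones, 3 had at least 2-fold more signal in INS and 2 at least 2-fold less. Over all probes measured there, 12.1% were higher and 17.2% lower, so counts over 4 and 12 probes give no result about the set.

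M400010831 was the highest of the CMP, with 12944 in WT and 44262 in INS and a log2 ratio of 1.95. It also had the largest rise of the set in the B cells, from 829 in WT to 30573 in INS (19.0-fold after centring), while in T-ALL it went from 7494 to 30530 (2.23-fold). In the CLP culture it was 14553 in WT and 31699 in INS (log2 ratio 0.86), and in the KSL culture 19675 and 25682 (log2 ratio -0.62). With normexp and loess its log2 ratio in the CLP culture was 1.23, over the limit that the rule sets there. In unscaled signals, which also depend on array and dye, the WT B cells were the lowest of the 10 samples and the WT T-ALL cells the next. M400005366, lower in the B cells and T-ALL, had a log2 ratio of 1.48 in the CMP, from 121 in WT to 300 in INS. Among the probes with both signals of at least 100 the lowest were M400000325, with 19957 in WT and 6193 in INS (log2 ratio -1.51), and M400011412, with 492 and 274 (-0.67). M400005934, with 122 in WT and an INS signal of 52 that missed this minimum, had a log2 ratio of -1.06; it was singled out after its values were seen.

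The higher and lower probes also differed in the series of their IDs, which the rule did not use. Of the 35 lower probes, 28 had IDs starting with M4 (80%), 6 with M2 and 1 with M3, while M4 made up 27% of the 5956 probes measured and 36.8% of all probes. Among the 18 lower probes with a WT T-ALL signal under 10% of the WT B cell signal, 17 were of the M4 series. Of the 10 higher probes, 6 were of the M3 series, against 27.1% of the probes measured. No source used here says what the ID series stand for. The higher probes lay in 9 of the 24 printing blocks and the lower ones in 20, with at most 5 in 1 block. No 2 of the 45 were neighbours on the array, and 0 of their spots were saturated or marked as bad by the scanner.

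The ratios were also taken with normexp and loess, the usual steps for 2-colour arrays, and from the authors' deposited table. Before these steps the median log2 ratio rose with brightness in the B cells, from -0.32 in the dimmest 25% of the probes with both signals of at least 100 to 0.14 in the brightest 25%, and went from 0.02 to -0.11 in T-ALL. With normexp and loess all 45 kept their sign on both arrays. At least 2-fold on both arrays remained 6 of the 10 higher and 27 of the 35 lower probes. The 27 included 17 of the 18 with a WT T-ALL signal under 10% of the WT B cell signal, and 10 of the other 17. The median log2 ratio of the higher probes was then 1.38 in the B cells and 1.14 in T-ALL, and that of the lower ones -2.07 and -1.53. By the authors' deposited table, the 10 higher probes included 7 and the 35 lower probes 27 that were at least 2-fold apart in their direction on both arrays, and 2 of the 35 lacked a value on one of them. Before centring, the INS signal was below the WT signal on both arrays for 35 of the 35 lower probes and at least 2-fold below it for 16 of them; for 10 of the 10 higher probes it was at least 2-fold above it on both. The other 19 lower probes reached 2-fold on both arrays only after centring.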

How the data were processed

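Per the file headers, the deposited scanner files hold spot intensities on a linear scale at 635 nm (Cy5, WT) and 532 nm (Cy3, INS), with the ratio as 532 over 635 and empty fields for normalization and background; per the labels, the dyes give the same direction. The log2 ratios in the authors' deposited table come with no stated steps; over probes with both signals of at least 100 it followed the scanner ratios (Pearson r across probes 0.99 to 0.999, slope 0.978 to 0.999), so its values are log2 of INS over WT. Its columns are centred on a median near 0 (-4.8e-05 to 4.3e-06) and its background step stays unknown.

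The median of the blank spots was subtracted per array and channel, signals were floored at 50, and log2 ratios were centred on the median of probes with both signals of at least 100. This formula belongs to the rule that chose the probes and was kept for every array. Normexp (offset 50) with loess (span 0.3) used limma 3.58.1 in R 4.3.3; other steps used Python 3.11.15 and pandas 2.3.3. The selection code was run on simulated data, with differences well above 2-fold planted in probes with WT signals well above the minimum of 100. This checked the code alone, and not dim signals or ratios near 2-fold. A difference counts from 2-fold on; with 1 array per setting there is no test, and the number of arrays limits the precision.

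Named probes were, per direction, the 2 with the largest of the smaller log2 size of both arrays, and the 2 highest and 2 lowest in the KSL culture and in the CMP with both signals of at least 100. Others were named or described after their values were seen. The members and lists were chosen with earlier results of these data known. Gene lists and cell type markers fixed for this work could not be evaluated, because no source used here pairs probes with genes.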

Additional observations from a re-analysis of the deposited data

Results flagged for a closer look

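Of the 5956 probes with a WT signal of at least 100 in the B cells and T-ALL, 19 differed at least 2-fold in opposite directions there. These 19 were under 2-fold in the CLP culture. Among the 5956, 535 were higher and 465 lower in INS B cells, and 99 were higher and 85 lower in INS T-ALL. Whether 19 is more than such counts give was not tested, and neither was the difference between settings. Of the 35 probes lower in the B cells and T-ALL, 12 had a WT signal of at least 100 in the CMP. Of these 12, 3 were at least 2-fold higher in INS there, and these differences were not tested either. Over all probes measured in the CMP 12.1% were higher, so 3 of 12 gives no result about the set. With normexp and loess the CMP log2 ratio was 1.21 for M400005366, 0.81 for M400006624 and 0.88 for M200000558. M400005366 had a log2 ratio of 1.48 in the CMP, against -3.66 or below in the B cells, with 23 in INS and 324 in WT, and -2.82 or below in T-ALL, with 41 in INS and 193 in WT; both INS signals were under the floor of 50. M400006624 had a log2 ratio of 1.26 in the CMP, from 18415 in WT to 39114 in INS, against -1.03 in the B cells and -1.21 in T-ALL. M200000558 had a log2 ratio of 1.13 in the CMP, from 104 in WT to 202 in INS, against -2.40 in the B cells and -1.42 in T-ALL.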

How the results depend on the processing

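The named log2 ratios kept their direction under every alternative. That of M400007607 in T-ALL moved by over 1.5 times in fold, between -4.72 in the authors' table and -2.43 with a floor of 100. The number of probes meeting the rule depended on the processing. Normexp with loess gave 5 higher and 33 lower, with 6 of the 10 higher probes still 2-fold in T-ALL and on both arrays. M400010831, among these 6, was then over the limit in the CLP culture. The local background in place of the blank spots gave 42 higher, of which 3 were among the 10, and 20 lower, of which 18 were among the 35. A WT signal of at least 200 left 3 higher and 19 lower, and a signal of at least 100 in both channels left 12 lower. Without a minimum there were 43 higher and 45 lower, and with a CLP limit of 0.5 there were 6 higher and 25 lower. Of the lower probes measured in the KSL culture, 0 were 2-fold lower with normexp and loess, with loess alone and with the mean of pixels. In the CMP, 1 lower probe was 2-fold higher with normexp and loess and with the minimum of 200, and 1 was 2-fold lower with these, the local background, a floor of 100, the mean of pixels and the minimum in both channels. Fewer probes pass a higher minimum by construction; the cause of the other shifts was not tested. Medians in the KSL culture and the CMP moved by less than 1.5 times in fold. Filters leave a probe's ratio unchanged, so they were not applied to the named ratios. Dim signals limit the lower probes in T-ALL, where 15 of 35 have only a bound. No paired analysis was possible because each setting has 1 array.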
